A study of Mus musculus with 6 samples.

Results

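The 5 genes described here are Ccl2, Ccl7, Ccl8 and Ccl12, which encode secreted CC chemokines, and Ccr2, which encodes the receptor on blood monocytes that answers to several of them. They were taken by symbol from the 32286 features counted in each library, and all 5 were found. Single-cell libraries had been made from quadriceps muscle of Cdh5-CreERT2:R26R-tdTomato mice, in which an endothelial promoter drives a tamoxifen-dependent recombinase that switches on a red reporter; every mouse of both groups carried these alleles. Both groups also received cardiotoxin, a snake venom toxin that kills muscle fibres, and the muscle was taken at day 5. In the CLL group (3 mice) clodronate liposomes were injected into a vein 1 day before and 2 days after the injury, a treatment that removes part of the circulating monocytes. The SHAM group (3 mice) received liposomes without clodronate on the same days. No uninjured muscle is analysed here, each mouse gave 1 library, and the sources used here do not give age, sex or liposome dose.

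Chemokines are small proteins that set up gradients along which leukocytes migrate. In the mouse, Ccl2, Ccl7 and Ccl12 bind CCR2 and draw Ly6C-high monocytes out of the bone marrow and into injured tissue, where they become macrophages and dendritic cells and lower CCR2 as they mature. Mouse Ccl8 signals mainly through another receptor, CCR8, and is known as a transcript of tissue-resident macrophages. The comparison asks which cells of the injured muscle held the transcripts of the ligands, which held that of the receptor, and how both differed between CLL and SHAM.

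The 4 chemokine genes lie together on mouse chromosome 11 (build mm10, GENCODE vM21), all on the plus strand with 3 exons each. Ccl2 spans chr11:82035571-82037453, Ccl7 spans chr11:82045712-82047525, Ccl12 spans chr11:82101845-82103400 and Ccl8 spans chr11:82115185-82116799. The 81.2 kb from the start of Ccl2 to the end of Ccl8 hold 5 protein-coding genes, in the order Ccl2, Ccl7, Ccl11, Ccl12 and Ccl8. Ccr2 is on the plus strand of chromosome 9, at chr9:124101950-124113557. The longest run of bases shared by any 2 of the members' transcripts was 23, between Ccl2 and Ccl7. A predicted gene on the minus strand, Gm17268, overlaps Ccl2 and had 0 UMIs in all libraries.

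The promoters of Ccl12 and Ccl8 are shown because these neighbours had similar patterns across cell classes and were unlike Ccl2 in how they differed between the groups. The RefSeq table of promoters (mm10) held 3 of the 5 members, Ccl8, Ccl12 and Ccr2. The 100 bases before the start of each gene are printed 5′ to 3′ on the plus strand, and capitals mark a TATAAA motif. The Ccl12 stretch is chr11:82101745-82101844 and the Ccl8 stretch is chr11:82115085-82115184.
Ccl12: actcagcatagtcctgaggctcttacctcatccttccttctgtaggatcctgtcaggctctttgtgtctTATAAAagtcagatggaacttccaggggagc
Ccl8: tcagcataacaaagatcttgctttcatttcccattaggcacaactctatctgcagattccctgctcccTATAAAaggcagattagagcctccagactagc
The motif began 31 bases before the start in Ccl12 and 32 bases before it in Ccl8. Over both strands, 13.6% of 32851 promoter windows of 300 bases held TATAAA. The 300-base windows of Ccl12 and Ccl8 were identical at 58% of aligned positions, against 50.7% for Ccl12 and Ccr2 and 48.9% for Ccl8 and Ccr2. Of the other 6 motifs searched, listed with the processing, none matched in the Ccl8 or Ccl12 window. Ccr2 held 1 match, of the C/EBP motif, 244 bases before the start that RefSeq gives. The Ccr2 window is chr9:124101933-124102232, so this RefSeq start lies inside the GENCODE span given above and not at its first base.

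Values are unique molecular identifiers (UMIs), each standing for 1 captured transcript, summed over the cells of a class in a library and given as counts scaled to the total UMIs of that sum (CPM). A class is a set of clusters named from marker genes, and carries "-like" because it rests on transcripts alone. Library totals ran from 23873416 to 94841003 UMIs, and 46685 of 60282 barcodes were kept, from 1848 to 19346 per library. CLL replicate 2 and SHAM replicate 3 stood apart, with 54.4% and 81.6% of kept cells in clusters that took no name against 13.6% to 21.1% in the other libraries, and with a median of 1624 and 879 UMIs per kept cell against 2760 to 13820. Pairs of libraries shared 2 to 57 barcodes. The results below are also given without these libraries where a call depends on them, and what set them apart was not tested.

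Summed over all kept cells, 2 of the 5 transcripts were higher and 3 were lower in CLL. Ccl2 stood at 777, 864 and 566 CPM in CLL against 244, 220.3 and 222 CPM in SHAM, with no overlap, and was 3.36-fold higher (log2 fold change 1.75 ± 0.16 SE, adjusted p = 2.45e-04, edgeR's quasi-likelihood test with Benjamini-Hochberg adjustment, as for every adjusted p on a fold change below). Ccl7 rose as well, from 132, 137 and 140.2 CPM in SHAM to 288, 359 and 219 CPM in CLL (1.14 ± 0.17, adjusted p = 0.00186). Both were thus higher in every CLL library than in any SHAM library. Ccl8 stood at 59.5, 138 and 45.8 CPM in CLL against 253, 294 and 352 CPM in SHAM (-1.84 ± 0.38, adjusted p = 0.00724). Ccl12 stood at 10.8, 18.2 and 10.5 CPM in CLL against 44.7, 59.2 and 40.1 CPM in SHAM (-1.81 ± 0.24, adjusted p = 0.00102). Ccr2 had the largest difference of the 5, with 10.0, 4.44 and 10.0 CPM in CLL against 49.3, 46.9 and 38.6 CPM in SHAM, a 5.23-fold lower level (-2.39 ± 0.29, adjusted p = 7.55e-04). In these sums fewer cells of a type and less RNA per cell cannot be told apart, and 36.6% of the 16687 genes tested were called, 17.6% higher and 19% lower in CLL. The macrophage/monocyte-like class held 608, 509 and 1005 cells in CLL and 5523, 404 and 413 in SHAM, and the fibroblast/tenocyte-like class 1444, 2125 and 2169 against 2873, 358 and 250.

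Ccl2, the main chemokine for CCR2, was found in most classes. In SHAM its level was highest in macrophage/monocyte-like cells, at 364 ± 69.9 CPM (SD, n = 3), and in mural-like cells (pericytes and smooth muscle), at 313 ± 9.59 CPM, and these overlapped. Dendritic-like cells at 199.97 CPM and fibroblast/tenocyte-like cells at 193 CPM came next and also overlapped. T/NK-like (139.8 CPM), myogenic-like (99.2 CPM), myofibre-like (96.7 CPM), glial-like (87.3 CPM) and endothelial-like cells (83.3 CPM) followed, each overlapping with the next. In CLL the order was led by fibroblast/tenocyte-like cells at 889 ± 141 CPM, mural-like cells at 833 ± 284 CPM and macrophage/monocyte-like cells at 803 ± 301 CPM, and these 3 ranges overlapped. The mural-like sums also held fibroblast markers, given below, whose part in the mural-like level was not tested. Dendritic-like cells came last among 11 classes, at 119 CPM.

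**Figure D1:**
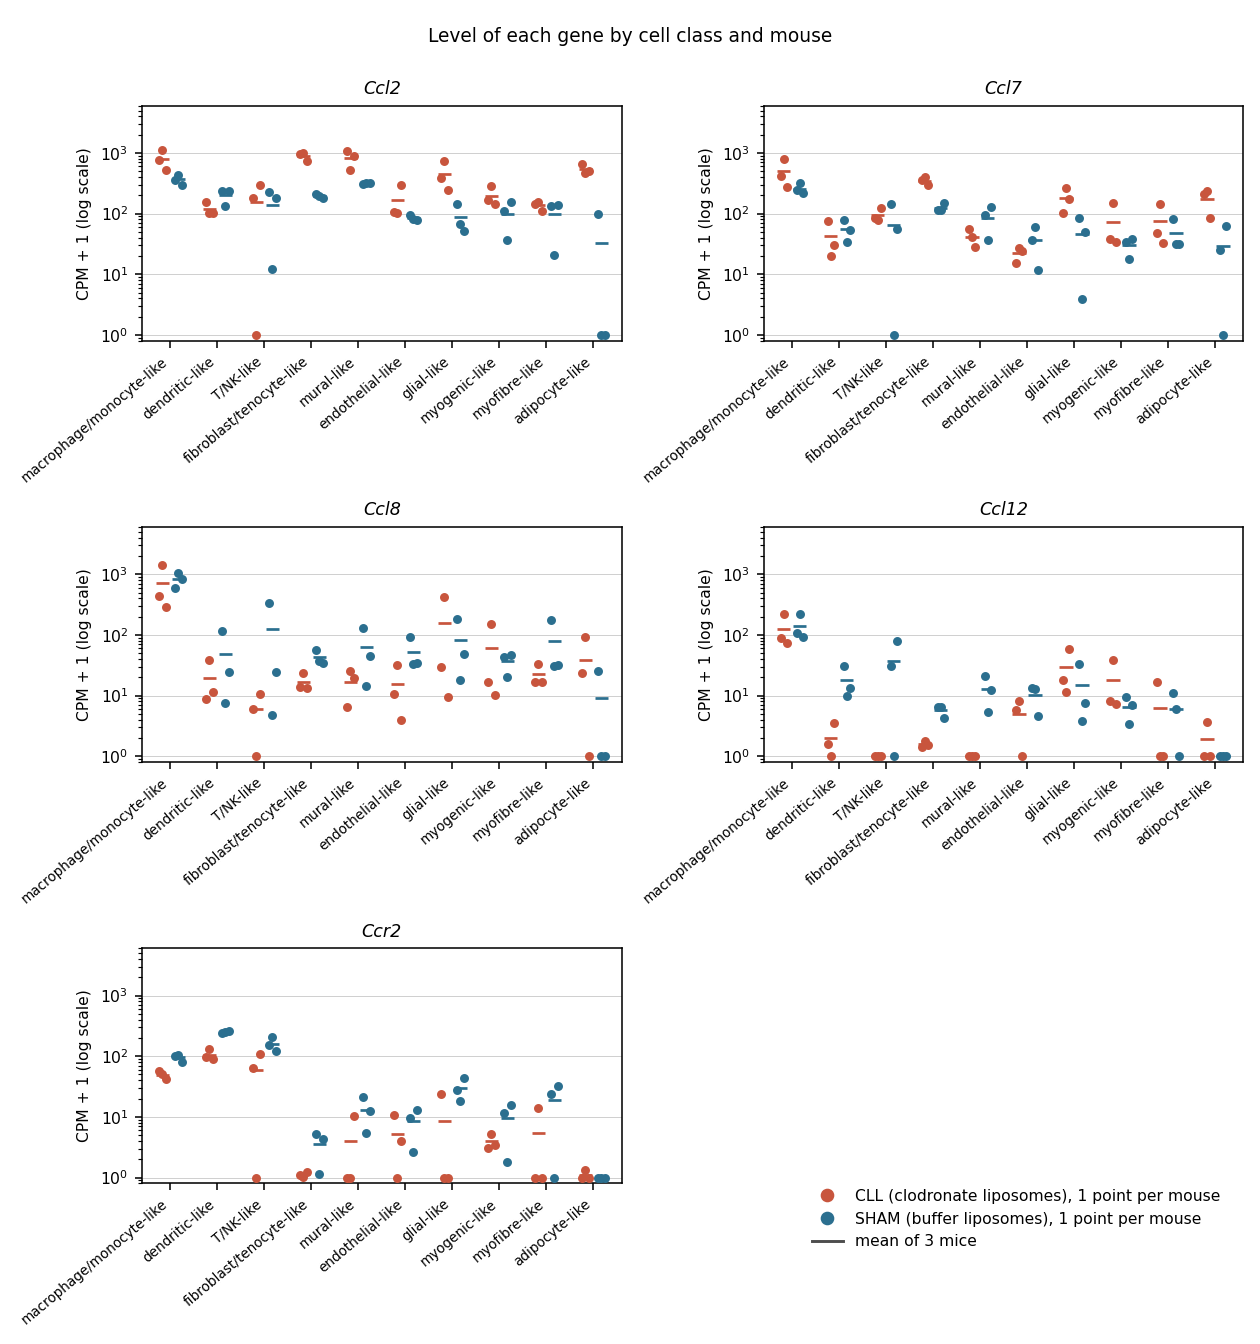
Level of each gene in the main cell classes, in CPM + 1 on a log scale, with 1 point per mouse (CLL and SHAM in different colours) and a bar at each group's mean. In fibroblast/tenocyte-like cells the Ccl2 points of CLL lie between 728 and 985 CPM and those of SHAM between 181 and 206 CPM.

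Ccl2 was called higher in fibroblast/tenocyte-like cells of CLL in each of the 13 settings tried. The level there was 955, 985 and 728 CPM in CLL against 206, 192 and 181 CPM in SHAM. Every CLL library was above every SHAM library, and the level was 4.93-fold higher in CLL (2.30 ± 0.15, 95% interval 1.98 to 2.63, adjusted p = 5.05e-05). Of the 14176 genes tested in this class, 26.4% were called, 12.2% higher and 14.2% lower, so a call alone is common here. After each cell was thinned to 1000 UMIs, 37.1%, 37.8% and 33.3% of these cells had a Ccl2 UMI in CLL and 12.8%, 8.94% and 9.21% in SHAM. Unthinned, the shares were 80.5%, 67.8% and 74.8% against 31.3%, 32.1% and 49.2%, at median depths of 17309.5 and 4725 UMIs per cell. As background, thinned T/NK-like cells had shares of 7.69%, 0% and 14.5% in CLL and 12.3%, 2.94% and 7.14% in SHAM, at median depths of 4242.5 and 2034 UMIs. The 0% rests on 5 cells. In CLL, T/NK markers summed to 2436, 1156 and 2535 CPM in the T/NK-like class, and mast cell and basophil markers to 4064, 16489 and 5920 CPM. Its fibroblast markers summed to 11241, 2620 and 6470 CPM in CLL. Their part in its Ccl2 shares was not tested. The thinned SHAM shares of fibroblast/tenocyte-like cells overlapped with the T/NK-like shares. By this measure they are not read as expression. Every CLL share of fibroblast/tenocyte-like cells was above the T/NK-like shares. The thinned fibroblast/tenocyte-like shares did not overlap (exact permutation p = 0.1, the smallest that 3 against 3 libraries allow, 0.455 after adjustment over 50 pairs of gene and class). The thinning left out 89 CLL and 71 SHAM cells of this class for holding fewer UMIs.

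Different clusters made up most of this class in the 2 groups. Cluster 8, led by Dio3 and Ccn5, held 66.3%, 67.3% and 69.7% of the class in CLL and 33.5%, 8.38% and 22.4% in SHAM, while cluster 12, led by Dlk1 and Clec3b, held 13.4%, 6.92% and 9.27% against 59.0%, 74.9% and 60.4%. The difference in Ccl2 was also tested within single clusters. In cluster 8 the level was 1109, 1169 and 841 CPM in CLL against 293, 609 and 251 CPM in SHAM, with no overlap (1.51 ± 0.28, adjusted p = 0.00581; 6.19% of the genes of this cluster were called, 3.03% higher and 3.15% lower). In cluster 12 it was 427, 263 and 407 CPM against 149, 110.1 and 132 CPM (1.57 ± 0.19, adjusted p = 3.16e-04, 4.28% called, 1.98% higher and 2.29% lower). In cluster 11, led by Kera and Tnmd, it was 498, 422 and 354 CPM against 122, 239 and 248 CPM (1.10 ± 0.24, adjusted p = 0.00876, 7.7% called, 2.77% higher and 4.93% lower). Ccl2 was higher in CLL in each of these 3 clusters, with no overlap between the groups. The share of all genes without overlap was not computed for single clusters.

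Macrophage/monocyte-like cells also held more Ccl2 in CLL, with a wider spread. Their level was 765, 1120.3 and 522 CPM in CLL against 363, 434 and 295 CPM in SHAM. The groups did not overlap, and the level was 2.17-fold higher in CLL (1.12 ± 0.25, 95% interval 0.56 to 1.68, adjusted p = 0.0400), in a class where 3.67% of 11271 genes were called, 1.44% higher and 2.24% lower. This call rested on few libraries: it was lost without CLL replicate 1 (adjusted p = 0.148), CLL replicate 2 (0.0948), CLL replicate 3 (0.0513) or SHAM replicate 3 (0.162), without CLL replicate 2 and SHAM replicate 3 together (0.256), and with doublets kept (0.0641). Within single macrophage clusters Ccl2 was higher in cluster 15, led by F13a1 and Cbr2 (1587, 1724 and 1422 CPM in CLL, 983, 912 and 718 CPM in SHAM, 0.86 ± 0.15, adjusted p = 0.00518, 5.74% called, 2.3% higher and 3.44% lower), and in cluster 5, led by Gpnmb and Mmp12 (347, 379.7 and 279 CPM against 187, 198 and 194 CPM, 0.80 ± 0.15, adjusted p = 0.0201, 1.96% called, 0.776% higher and 1.19% lower). In cluster 7, led by Il1b and Cx3cr1, it did not pass (459.6, 370.4 and 398 CPM against 275, 351 and 175 CPM, 0.66 ± 0.24, adjusted p = 0.186, 2.55% called, 0.982% higher and 1.56% lower). These clusters made up unlike parts of the class: cluster 15 held 38.5%, 58.5% and 24.1% of it in CLL and 19.6%, 23.5% and 25.9% in SHAM, and cluster 7 held 31.2%, 11.2% and 32.8% against 45.8%, 55.9% and 42.9%.

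The difference between the groups in Ccl2 was itself smaller in macrophage/monocyte-like than in fibroblast/tenocyte-like cells, by 1.16 ± 0.20 on the log2 scale (class by treatment term with the library as a block, adjusted p = 0.0182, 4.18% of genes called). This term was lost without CLL replicate 1 (0.106), CLL replicate 3 (0.0863) or SHAM replicate 3 (0.0544). Against dendritic-like cells the Ccl2 difference in macrophage/monocyte-like cells was larger by 1.61 ± 0.30 (adjusted p = 0.00512, 2.87% called), and this held without any 1 library. Dendritic-like cells themselves had 156, 100.2 and 100.2 CPM in CLL against 231, 131 and 238 CPM in SHAM, which overlapped (-0.62 ± 0.27, adjusted p = 0.286).

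The remaining classes gave values with less certainty. Mural-like cells, few in CLL (21, 51 and 16 cells), had 1092, 529 and 878 CPM of Ccl2 in CLL and 302, 318 and 318 CPM in SHAM, without overlap (1.47 ± 0.27, adjusted p = 0.0898; edgeR called 0 genes in this class, 491 having an unadjusted p under 0.05). Glial-like cells had 388, 740.1 and 243 CPM against 145, 66 and 51.2 CPM (2.499 ± 0.46, adjusted p = 0.0573, 0.169% called, 0.0188% higher). Endothelial-like cells, the vessel lining in which the reporter can be switched on, had 107, 101 and 291 CPM against 94.1, 79.6 and 76.1 CPM (1.16 ± 0.33, adjusted p = 0.252, 0.406% called, 0.0748% higher). In none of the 3 classes did Ccl2 pass the test, and in none did the groups overlap. The share of all genes without overlap was not computed for mural-like or glial-like cells. Fibroblast markers summed to 13224, 9677 and 22529 CPM in mural-like cells of CLL and 11891, 5187 and 5064 CPM in SHAM. The mural markers there stood at 16539, 8723 and 11973 CPM in CLL. In glial-like cells the fibroblast markers summed to 14603, 20807 and 22370 CPM in CLL and 14862, 16845 and 11920 CPM in SHAM. The part of fibroblast RNA in the Ccl2 values of these classes was not tested. Myogenic-like cells, which carry genes of muscle stem cells and their progeny, overlapped at 168, 280.4 and 143 CPM against 109.7, 35.7 and 152 CPM (1.11 ± 0.43, adjusted p = 0.178, 3.61% called, 1.34% higher and 2.27% lower). Over all genes tested, 17.8% had CPM ranges without overlap in endothelial-like cells, 2.62% higher and 15.2% lower in CLL. In myogenic-like cells 27.8% did (7.78% higher and 20% lower), and in dendritic-like cells 18.4% (6.82% and 11.6%). In macrophage/monocyte-like cells 21.9% did (9.84% and 12%), and in fibroblast/tenocyte-like cells 42.8% (14.8% and 28.1%). Over all kept cells 50.5% did (21.5% and 29%). Adipocyte-like cells held 656, 463 and 497 CPM of Ccl2 in CLL and were almost absent from SHAM (4, 4 and 1 cells), so they were not compared.

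**Figure D2:**
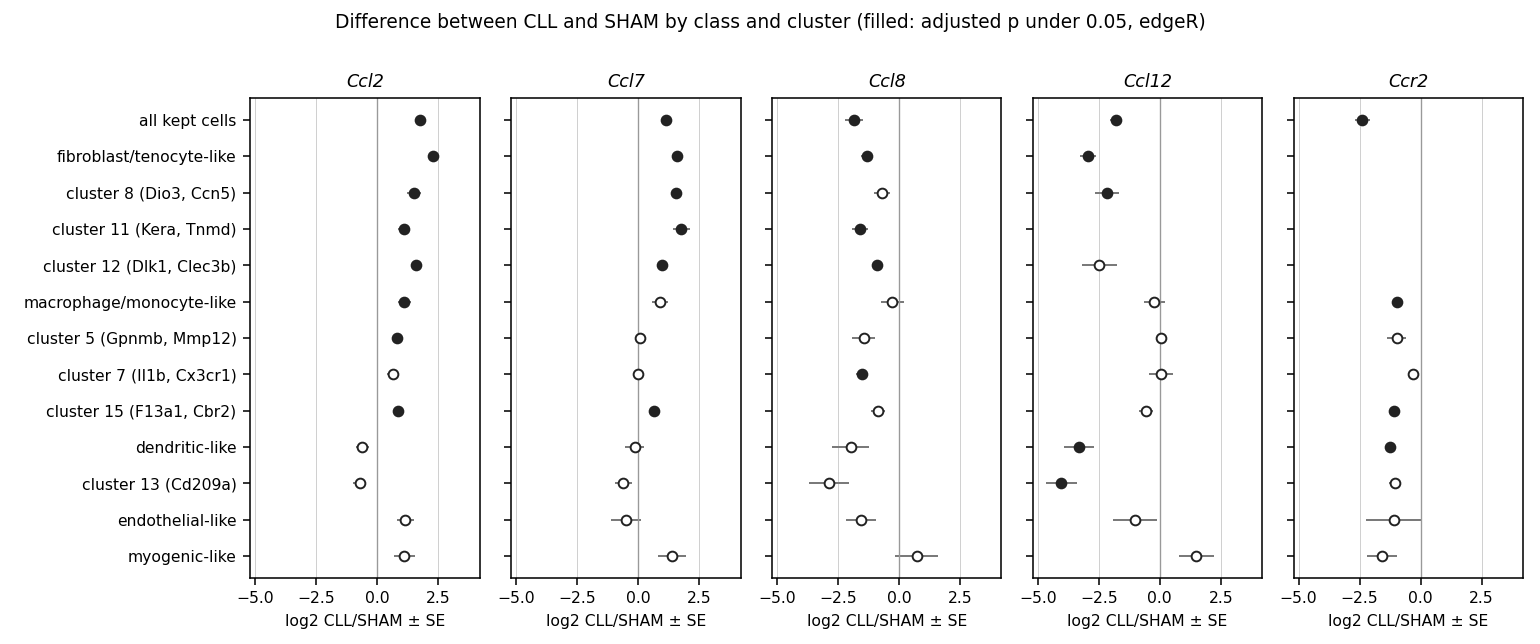
Difference of each gene between the groups, as log2 of CLL over SHAM with its standard error, by cell class and single cluster; filled points passed an adjusted p of 0.05. Ccl2 and Ccl7 lie above 0 and Ccl8 and Ccl12 below 0 in fibroblast/tenocyte-like cells, and Ccr2 lies below 0 in macrophage/monocyte-like and dendritic-like cells.

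Ccl7, a second CCR2 ligand encoded next to Ccl2, was also higher in fibroblast/tenocyte-like cells of CLL. Its order over named classes began in SHAM with macrophage/monocyte-like cells at 258 ± 52.4 CPM, which did not overlap with fibroblast/tenocyte-like cells at 124 ± 19.8 CPM. In CLL these classes stood at 498 ± 277 CPM and 349.7 ± 54.3 CPM and overlapped. Its fibroblast/tenocyte-like level was 358, 399 and 291 CPM in CLL against 114, 112 and 147 CPM in SHAM, without overlap, a 3.00-fold higher level (1.59 ± 0.15, adjusted p = 1.23e-04). It was higher in cluster 8 (404, 464 and 336 CPM against 119, 164 and 152 CPM, 1.55 ± 0.18, adjusted p = 2.79e-04), in cluster 11 (1.78 ± 0.33, adjusted p = 0.00333) and in cluster 12 (0.99 ± 0.16, adjusted p = 0.00211). In macrophage/monocyte-like cells the values were 417, 807 and 270.1 CPM in CLL against 245, 316 and 214 CPM in SHAM. These overlapped and did not pass (0.91 ± 0.32, 95% interval 0.20 to 1.62, adjusted p = 0.147). Among macrophage clusters Ccl7 was higher in cluster 15, at 1028, 1343 and 913 CPM against 746, 743 and 584 CPM (0.66 ± 0.16, adjusted p = 0.0311), while its log2 fold changes were 0.09 in cluster 5 and -0.01 in cluster 7 (adjusted p = 0.902 and 0.998). The difference in Ccl7 between macrophage/monocyte-like and fibroblast/tenocyte-like cells was not past the threshold (-0.72, adjusted p = 0.229). Endothelial-like cells had 14.6, 26.3 and 23.5 CPM of Ccl7 against 35.6, 59.6 and 10.98 CPM, which overlapped (-0.49, adjusted p = 0.900), and glial-like cells 103, 264 and 176 CPM against 83.8, 2.87 and 49.0 CPM, which did not (2.01, adjusted p = 0.281). Neither passed the test, and neither did Ccl7 in dendritic-like (-0.14, adjusted p = 0.918) or myogenic-like cells (1.39, adjusted p = 0.198). Mural-like cells, next after fibroblast/tenocyte-like cells in the SHAM order, had 40.9 ± 13.9 CPM of Ccl7 in CLL and 85.2 ± 46.6 CPM in SHAM. These ranges overlapped and Ccl7 did not pass (-0.91 ± 0.51, adjusted p = 0.560), its fold change being negative where that of Ccl2 was positive.

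The shares of the Ccl2 and Ccl7 transcripts that each class held stood apart between the groups, though no share passed after adjustment. Fibroblast/tenocyte-like cells held 71.9%, 63.0% and 71.7% of all Ccl2 UMIs of the kept cells in CLL and 16.9%, 29.5% and 19.3% in SHAM. Macrophage/monocyte-like cells held 10.2%, 7.56% and 10.8% in CLL and 37.5%, 49.3% and 37.3% in SHAM. The groups overlapped in neither class (exact permutation p = 0.1, 0.25 after adjustment over 55 pairs). For Ccl7 the fibroblast/tenocyte-like share was 69.5 ± 7.03% in CLL and 23.3 ± 5.32% in SHAM, and the macrophage/monocyte-like share 14.2 ± 0.973% and 49.0 ± 7.58% (SD, n = 3 each). These shares follow both the level per class and the number of cells of each class, and the cell numbers differ between libraries as given above. In SHAM the thinned part of fibroblast/tenocyte-like cells with a Ccl2 UMI overlapped with that of T/NK-like cells, as given above.

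**Figure D3:**
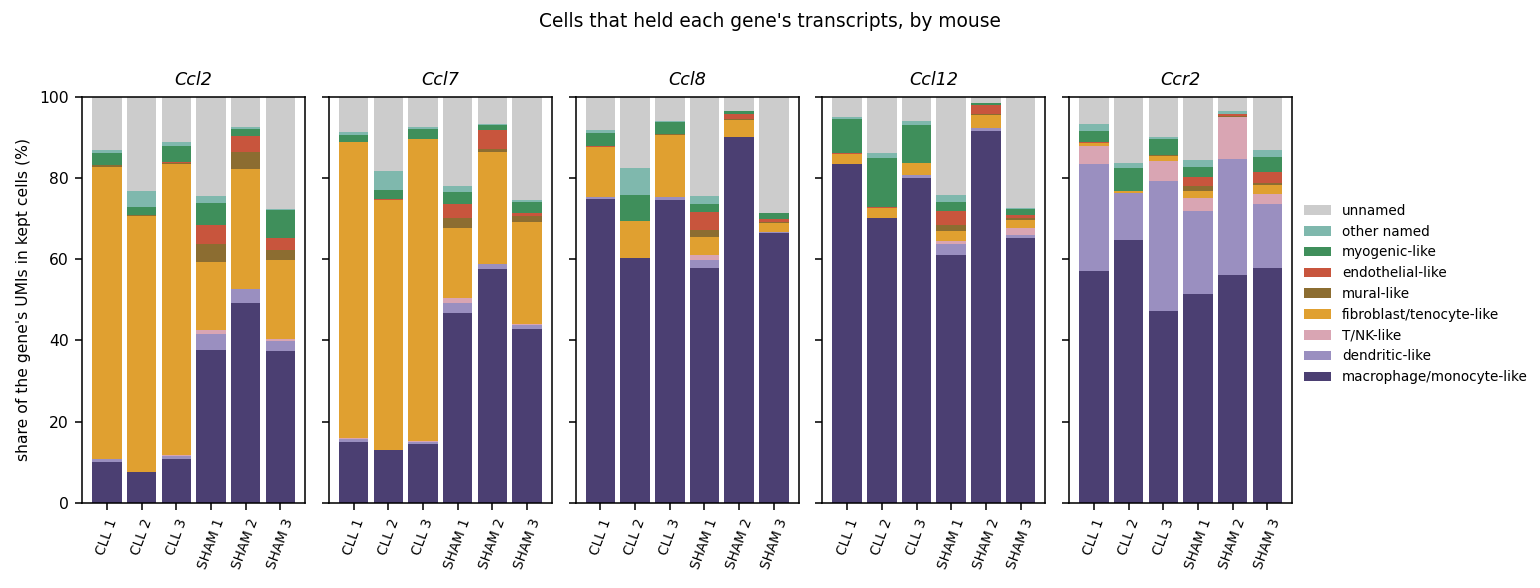
Share of each gene's UMIs held by each cell class, as stacked bars from 0% to 100% for the 3 CLL and 3 SHAM libraries. For Ccl2 the fibroblast/tenocyte-like part is 63.0% to 71.9% in CLL and 16.9% to 29.5% in SHAM, while for Ccl8, Ccl12 and Ccr2 macrophage/monocyte-like cells hold 47.1% or more in every library.

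Ccl8 and Ccl12 were mostly macrophage transcripts in both groups. Macrophage/monocyte-like cells held 74.8%, 60.2% and 74.4% of the Ccl8 UMIs in CLL and 57.8%, 90.0% and 66.5% in SHAM, and 83.4%, 70.1% and 79.9% of the Ccl12 UMIs against 61.0%, 91.5% and 65.2%. Both pairs of ranges overlapped. In SHAM the named class with the next highest mean, T/NK-like cells, stood at 122 CPM of Ccl8 and 35.6 CPM of Ccl12 and did not overlap with it. Ccl8 stood at 430.4, 1428 and 291 CPM in macrophage/monocyte-like cells in CLL and at 581, 1059 and 832 CPM in SHAM (-0.28 ± 0.47, adjusted p = 0.805). Ccl12 stood at 87.3, 218 and 71.4 CPM against 108, 217 and 93 CPM (-0.22 ± 0.42, adjusted p = 0.824). For both genes CLL replicate 2 was the high library in CLL and SHAM replicate 2 in SHAM, the groups overlapped, and the direction turned without CLL replicate 3 or without SHAM replicate 2 (up to 0.09 for Ccl8 and 0.35 for Ccl12). Both genes were thus called lower over all kept cells, in each of the 12 settings tried, and not inside the class that held most of their transcripts. Cluster 15, which Ccl8 and Ccl12 help to lead, held 38.5%, 58.5% and 24.1% of that class in CLL and 19.6%, 23.5% and 25.9% in SHAM. The part of these cluster shares in the class levels was not tested. The 17 markers of that class summed to 46481.9, 42833 and 49631 CPM in it in CLL against 69217, 77502 and 75754 CPM in SHAM, without overlap, and their part in the members' values there was not tested.

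Ccl8 had a negative log2 fold change in each of the 3 macrophage clusters, and differences between clusters were not tested. In cluster 7 it was 73.1, 148 and 65.3 CPM in CLL against 295, 257 and 206 CPM in SHAM, without overlap (-1.53 ± 0.23, adjusted p = 0.00597). In cluster 5 the values were 63, 249.97 and 67.9 CPM against 238, 191 and 536 CPM (-1.45, adjusted p = 0.141). Cluster 15, for which Ccl8 and Ccl12 were among the 10 leading genes, so that its level is a description, had 1238, 2404 and 1292 CPM of Ccl8 against 2051, 4119 and 2577 CPM (-0.85). Ccl12 had log2 fold changes of 0.05 in cluster 7 and 0.06 in cluster 5 (adjusted p = 0.994 and 0.942). In cluster 15 its log2 fold change was -0.55, again as a description.

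**Figure D4:**
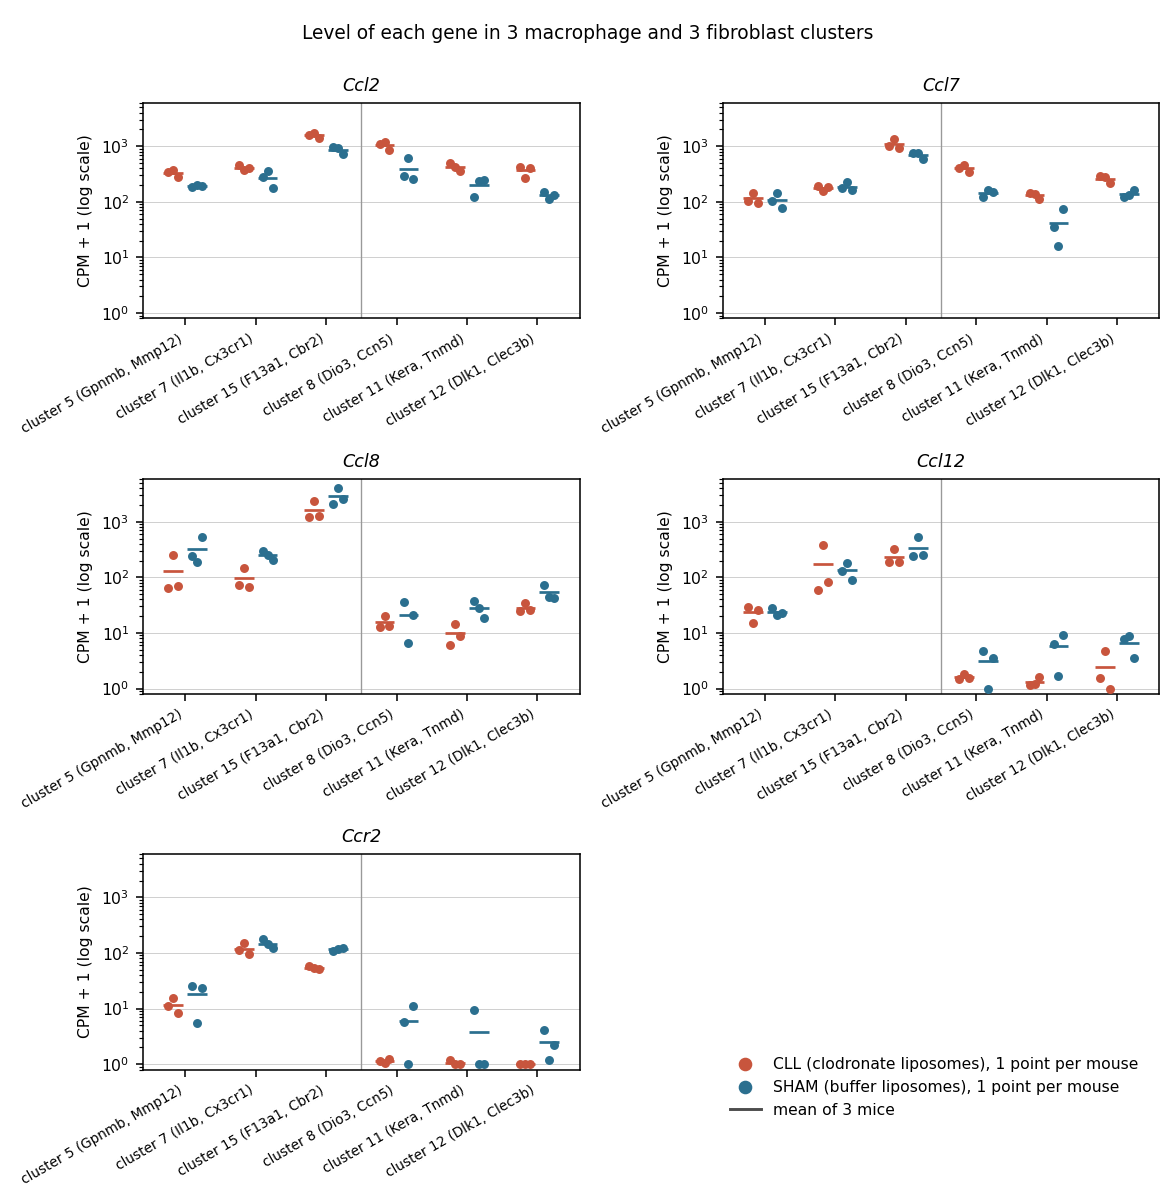
Level of each gene in 3 macrophage/monocyte-like clusters (left of the grey line) and 3 fibroblast/tenocyte-like clusters (right of it), in CPM + 1 on a log scale, 1 point per mouse with a bar at each mean. Ccr2 in cluster 15 lies between 50.1 and 56.7 CPM in CLL and between 107 and 121 CPM in SHAM.

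Fibroblast/tenocyte-like cells held few Ccl8 and Ccl12 transcripts, and both were lower in CLL. In fibroblast/tenocyte-like cells Ccl8 was 12.6, 22.4 and 12.5 CPM in CLL against 55.1, 36.3 and 33.1 CPM in SHAM (-1.31 ± 0.23, adjusted p = 0.00257), and Ccl12 was 0.428, 0.796 and 0.541 CPM against 5.41, 5.57 and 3.25 CPM (-2.94 ± 0.32, adjusted p = 2.03e-04). The Ccl12 values rest on 15, 23 and 20 UMIs in CLL and 75, 43 and 24 UMIs in SHAM. The groups did not overlap for either gene. A set of 6 abundant macrophage markers, C1qa, C1qb, C1qc, Lyz2, Tyrobp and Fcer1g, summed to 67.4, 99.7 and 96.5 CPM in the same cells in CLL and 678, 158 and 477 CPM in SHAM, against 24508 to 33799 CPM in macrophage/monocyte-like cells. Per 1000 UMIs of these markers the fibroblast/tenocyte-like cells held 6.35, 7.99 and 5.61 Ccl12 UMIs in CLL and 7.99, 35.3 and 6.82 in SHAM, which overlapped. With cells holding 2 or more of these markers left out, Ccl12 was still lower in CLL (-3.09, adjusted p = 2.77e-04), and so was Ccl8 (-1.52, adjusted p = 4.86e-04). By cluster, Ccl8 was lower in cluster 12 (24.2, 34.2 and 24.6 CPM against 72.6, 44.05 and 41.9 CPM, -0.90, adjusted p = 0.0208) and cluster 11 (5.01, 13.6 and 7.94 CPM against 35.96, 27.0 and 17.7 CPM, -1.58, adjusted p = 0.00752), and did not pass in cluster 8 (-0.70, adjusted p = 0.223). The part of macrophage RNA in these low levels was not tested further.

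Ccl12 also differed in dendritic-like cells, with 0.608, 0 and 2.47 CPM in CLL (1, 0 and 6 UMIs) and 29.4, 8.89 and 12.4 CPM in SHAM (85, 11 and 9 UMIs). The groups did not overlap (-3.32 ± 0.61, adjusted p = 0.0227), in a class where 1.52% of 7635 genes were called, 0.458% higher and 1.06% lower. The call was lost without CLL replicate 1 (0.174), CLL replicate 3 (0.219) or SHAM replicate 1 (0.143), and with the replicate number as a block (0.064). The 17 macrophage markers summed to 4413, 5742 and 4047 CPM in dendritic-like cells of CLL and 16166, 8554 and 16131 CPM in SHAM, without overlap, and their part in the Ccl12 difference was not tested. Within cluster 13 Ccl12 stood at 0.806, 0 and 1.15 CPM against 26.3, 9.89 and 15.2 CPM (-4.03 ± 0.63, adjusted p = 0.0229; 0.811% of its genes were called, 0.206% higher). In myogenic-like cells Ccl12 stood at 7.11, 37.7 and 6.28 CPM against 8.34, 2.43 and 5.89 CPM and overlapped (1.49, adjusted p = 0.274). Ccl8 overlapped there too, at 15.6, 153 and 9.17 CPM against 43, 19.5 and 46.5 CPM (0.73, adjusted p = 0.681), CLL replicate 2 being the high library for both. Endothelial-like cells held 9.73, 31.1 and 2.94 CPM of Ccl8 against 90.6, 32.5 and 32.9 CPM, without overlap and without a call (-1.54, adjusted p = 0.5003). In the Pax7 cluster 1 of the myogenic-like class, where 11.7% of genes were called, 5.37% higher and 6.34% lower, Ccl8 was lower, at 4.37, 19.1 and 6.51 CPM against 40.5, 16.8 and 31.9 CPM (-1.76 ± 0.42, adjusted p = 0.0206), although the groups overlapped.

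The Ccl12 difference between the groups depended on the class. It was smaller in macrophage/monocyte-like than in fibroblast/tenocyte-like cells by 2.80 ± 0.35 on the log2 scale (adjusted p = 0.00714), and smaller than in dendritic-like cells by 2.83 ± 0.72 (adjusted p = 0.0345). The first was lost without CLL replicate 1 (0.0593), and the second without CLL replicate 1 (0.198), CLL replicate 2 (0.0546) or SHAM replicate 1 (0.332). For Ccl8 the term between macrophage/monocyte-like and fibroblast/tenocyte-like cells did not pass (0.86, adjusted p = 0.332). The Ccl12 fold change in myogenic-like cells stood 4.23 ± 0.60 above that in fibroblast/tenocyte-like cells (adjusted p = 0.0128, 2.53% of genes called), and this was lost without CLL replicate 1 (0.0566). Between endothelial-like and fibroblast/tenocyte-like cells 2.32% of genes were called and no member was, with -1.36 ± 0.37 for Ccl2 (adjusted p = 0.0674) and -2.11 ± 0.62 for Ccl7 (adjusted p = 0.0889).

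Ccr2, the receptor, was held by leukocytes. Its level was highest in dendritic-like cells in SHAM, at 248.5 ± 8.33 CPM, followed by T/NK-like cells at 159.6 CPM and macrophage/monocyte-like cells at 95.1 ± 13.6 CPM, with no overlap between neighbours in this order. In CLL the order again began with dendritic-like cells, at 104 ± 21.6 CPM, whose range overlapped with that of the next class, T/NK-like cells. Neutrophil-like cells followed at 53.2 CPM, with a range of 0 to 108 CPM from 24, 29 and 15 cells. Macrophage/monocyte-like cells came after them at 48.2 ± 7.47 CPM, and these ranges overlapped. Macrophage/monocyte-like cells held the largest share of the Ccr2 UMIs in both groups, 57.0%, 64.7% and 47.1% in CLL and 51.3%, 56.0% and 57.9% in SHAM, and dendritic-like cells held 26.5%, 11.6% and 32.1% against 20.4%, 28.6% and 15.6%. The ranges of both shares overlapped between the groups.

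Within dendritic-like cells Ccr2 was lower in CLL. The level was 96.7, 129 and 87.8 CPM in CLL against 241, 247 and 257 CPM in SHAM. The groups did not overlap, and the level was 2.37-fold lower in CLL (-1.24 ± 0.22, adjusted p = 0.0207). The call was lost without CLL replicate 1 (0.163) or CLL replicate 3 (0.326), without CLL replicate 2 and SHAM replicate 3 together (0.0537), and with the replicate number as a block (0.0755), and the log2 fold change stayed between -1.38 and -1.13 over all 12 settings. The 17 macrophage markers summed to 4047 to 5742 CPM in this class in CLL and to 8554 to 16166 CPM in SHAM, and their part in its Ccr2 difference was not tested. Thinned to 1000 UMIs, 10.5%, 7.69% and 8.04% of dendritic-like cells had a Ccr2 UMI in CLL and 20.4%, 15.9% and 16.3% in SHAM, without overlap (exact permutation p = 0.1, 0.455 after adjustment). Unthinned shares were 34.5%, 11.7% and 26.8% against 36.2%, 57.5% and 65.9%, at median depths of 5905 and 2451 UMIs. Cluster 13, led by Cd209a, held 68.5%, 41.6% and 63.9% of the class in CLL and 84.5%, 85.8% and 84.1% in SHAM, and within it Ccr2 was 127, 199 and 118 CPM against 279.6, 273 and 317 CPM (-1.05 ± 0.23, adjusted p = 0.0586).

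Within macrophage/monocyte-like cells Ccr2 stood at 55.2, 49.2 and 40.3 CPM in CLL against 101, 105 and 79.6 CPM in SHAM. The groups did not overlap, and the level was 1.96-fold lower in CLL (-0.97 ± 0.18, adjusted p = 0.0169). The call was lost without CLL replicate 1 (0.056), CLL replicate 2 (0.0525) or CLL replicate 3 (0.0982), and without CLL replicate 2 and SHAM replicate 3 together (0.0877), with log2 fold changes from -1.12 to -0.81. By cluster, it was lower in the F13a1 cluster 15, at 56.7, 53.0 and 50.1 CPM against 107, 116 and 121 CPM (-1.09 ± 0.15, adjusted p = 0.00145). In the Il1b cluster 7 the values were 113, 148 and 94.8 CPM against 174, 143 and 121 CPM, which overlapped (-0.32 ± 0.18, adjusted p = 0.404). In the Gpnmb cluster 5 they were 9.88, 14.2 and 7.3 CPM against 24.9, 4.56 and 22.8 CPM (-0.99, adjusted p = 0.228). Thus 1 of these 3 clusters showed the lower level with a call, and whether the clusters differed from each other was not tested.

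Thinned, 5.79%, 4.23% and 4.30% of macrophage/monocyte-like cells had a Ccr2 UMI in CLL and 9.45%, 10.4% and 7.86% in SHAM; unthinned, 20.7%, 12.2% and 16.9% against 19.7%, 34.4% and 30.99%, at median depths of 7363.5 and 2930.5 UMIs. As background, 0% of thinned fibroblast/tenocyte-like cells had one in every CLL library and 0.427%, 0% and 0% in SHAM, below every share in the macrophage/monocyte-like class. The Ccr2 difference was not detectably unlike between macrophage/monocyte-like and dendritic-like cells (0.26, adjusted p = 0.650). T/NK-like cells, with 5 cells in CLL replicate 2, had 63.8, 0 and 108 CPM of Ccr2 in CLL (26, 0 and 33 UMIs) and 155, 204 and 120.1 CPM in SHAM (111, 109 and 31 UMIs), and were too few to test. The mast cell and basophil markers summed to 4064, 16489 and 5920.2 CPM in that class in CLL against 1863, 11.2 and 3.87 CPM in SHAM, without overlap, and their part in its Ccr2 level was not tested. Its T/NK markers summed to 2436, 1156 and 2535 CPM in CLL. Fibroblast/tenocyte-like cells had 0.114, 0.0346 and 0.216 CPM in CLL against 4.19, 0.13 and 3.39 CPM in SHAM, with too few UMIs to test.

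Genes of the same pathway were read from lists chosen with earlier results of these data known. Of 9 other CC chemokines tested in fibroblast/tenocyte-like cells, 0 were higher in CLL, 5 were lower and 4 did not pass, where 12.2% of all genes tested were called higher and 14.2% lower; their median log2 fold change was -0.91, against -0.02 over all genes. Ccl11, the eosinophil chemokine encoded between Ccl7 and Ccl12, was among those that fell, from 97.4 ± 37.9 CPM to 19.1 ± 9.49 CPM (-2.28, adjusted p = 0.00103). So of the 5 neighbouring genes on chromosome 11, Ccl2 and Ccl7 were higher and Ccl11, Ccl12 and Ccl8 lower in CLL over this class as a whole. Ccl2 and Ccl7 were also higher within cell clusters 8, 11 and 12. Ccl8 did not pass in cluster 8 (adjusted p = 0.223). Ccl12 passed in cluster 8 (0.0200), did not pass in cluster 12 (0.0682) and was not tested in cluster 11. For Ccl11 no values within clusters are given, and the part of macrophage RNA in the low Ccl12 levels was not tested. Of 12 CXC and other leukocyte-recruiting ligands, 4 were higher, 5 lower and 3 did not pass, with the neutrophil chemokine Cxcl3 higher (2.69) and the interferon-induced Cxcl10 lower (-1.05, adjusted p = 8.5e-04). Csf1, the growth factor that keeps macrophages alive, stood at 90.3 CPM in CLL against 59.2 CPM in SHAM (0.70) and was among the higher ones.

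Of 13 inducers and feedback genes of Ccl2 in fibroblast/tenocyte-like cells, 2 were higher, 4 lower and 7 did not pass, and the share higher was near the 12.2% over all genes. Nfkbia, the inhibitor that NF-kB induces, was 860 ± 33.3 CPM in CLL against 434 ± 47.4 CPM in SHAM (1.08, adjusted p = 3.64e-04), and Nfkb1 was also higher (0.85). Zfp36, whose protein speeds the decay of cytokine mRNAs, was lower at 442 against 757 CPM (-0.68, adjusted p = 0.00313). Zc3h12a, an RNase that acts on cytokine mRNAs, did not pass (-0.33, adjusted p = 0.167), nor did Tnf (-0.52, adjusted p = 0.309). Of 12 immediate early genes that cell dissociation can induce, 3 were higher (Ier3, Ier2 and Nr4a1) and 1 was lower (Fos). The other 8 did not pass by edgeR, which called 26.4% of all genes in this class. An unadjusted p under 0.05 was found for 10 of the 12, against 5564 of all 14176 genes. DESeq2 called 7 of the 12, against 25.3% of all genes. Their part in the Ccl2 difference was not tested.

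In macrophage/monocyte-like cells, 0 of 9 other CC chemokines passed in either direction by edgeR (4 at an unadjusted p under 0.05, 1 by DESeq2), with a median log2 fold change of -0.01. Of 9 CXC and other ligands, Cxcl10 (505 ± 105 against 173 ± 36.8 CPM, 1.54, adjusted p = 0.00933) and the neutrophil chemokine Cxcl1 (828 ± 177 against 418 ± 40.8 CPM, 1.00, adjusted p = 0.0239) were higher, and Cxcl9 was lower (-2.23). Of 14 inducers and feedback genes, 1 was higher, 2 were lower and 11 did not pass. Over all genes tested in this class, 1.44% were called higher and 2.24% lower. The cytokine Tnf was the higher one, at 465 ± 74.6 against 225 ± 45.0 CPM (1.06, adjusted p = 0.0279), and Irf1 was among the lower ones. Of 6 other chemokine receptors, 0 were higher, 2 were lower and 4 did not pass. Cxcr4 was among the lower ones (-0.89, adjusted p = 0.0345), and Ccr1 (0.14) and Cx3cr1 (-0.32), the receptor of patrolling monocytes, did not pass. Of 12 genes of infiltrating monocytes, a list that includes Ccr2, 2 were higher, 4 lower and 6 did not pass, where 3.67% of all genes were called. The higher ones were Hp, at 7.41 ± 3.84 against 0.926 ± 0.264 CPM (3.01, adjusted p = 0.00677), and S100a4, at 440.3 ± 103 against 146 ± 58.3 CPM (1.63, adjusted p = 0.0133). Hp was also a leading gene of the adipocyte-like cluster, with 18, 642 and 22 cells in CLL and 4, 4 and 1 in SHAM. Over all kept cells it stood at 130, 1488 and 271 CPM in CLL against 8.24, 5.75 and 10.2 CPM in SHAM. The part of adipocyte RNA in its macrophage/monocyte-like level was not tested. The lower ones included Thbs1 (116 ± 10.5 against 210.3 ± 37.2 CPM, -0.84, adjusted p = 0.0200) and Plac8 (9.58 against 27.3 CPM, -1.42, adjusted p = 0.0217). Ly6c2, which defines the Ly6C-high monocyte, was 3.37 ± 2.95 against 11.03 ± 2.52 CPM and did not pass (-1.47, adjusted p = 0.133). Of the 12 immediate early genes, 0 passed in this class by edgeR (3 at an unadjusted p under 0.05, 3 by DESeq2).

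Across 54 sums of 11 classes in 6 libraries, the genes whose levels ranked most like each member's were taken from 9261 genes by Spearman's rho, as a description, since sums of 1 library share its depth and class markers recur in every library. Cxcl1 was most like Ccl2 (0.84), followed by Ccl7 (0.73), Dse, Itgb5 and Lrp1, and the genes most like Ccl7 were Ccl2, Dse, Lrp1, Itgb5 and Tex264. Ccl8 was most like Cbr2 and Selenop (0.78 each) and then Ccl12 (0.77), Ccdc152 and Wwp1, and Ccl12 was most like Fcrls (0.80), Tnfsf13, Ms4a7, Abcc3 and Lgmn. Ccr2 was most like Gpr183 (0.91) and Gm5547 (0.90), followed by AB124611, Ikzf1 and Ifi209. Between members the measure was 0.13 for Ccl2 and Ccl8, -0.14 for Ccl2 and Ccr2, and 0.26 for Ccl8 and Ccr2. The highest values between members were those of Ccl8 with Ccl12 and of Ccl2 with Ccl7.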

How the data were processed

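Each of the 6 libraries is a matrix of raw counts, UMIs per gene and barcode, deposited as whole numbers; the authors made them with Cell Ranger 6.1.2 on build mm10, per the submitters' processing notes. Barcodes were kept with 300 or more genes and a mitochondrial share of 15% or less, and those with the highest Scrublet scores (0.8% per 1000 barcodes, 7032 barcodes) were removed as doublets. Cells of all libraries were clustered jointly (2000 variable genes, 30 principal components, 15 neighbours, Leiden resolution 1, no integration) into 28 clusters. Of these, 19 were named from 16 marker lists when 3 or more markers were each found in 10% of cells and their mean log2 fold over other cells was 0.5 or more, and 0.5 above the next list; they form 11 classes. No name was given where mitochondrial genes or genes that overlap rRNA led, or where the leading genes went against the best list. Cluster 2 is an exception: its myofibre list scored above its myogenic list, and it was placed with myogenic-like cells since 3 of its 10 leading genes were myogenic markers and 0 were myofibre markers, a choice made with the clusters in view. It holds 44, 219 and 99 cells in CLL and 116, 12 and 9 in SHAM. The members and the gene lists were chosen with earlier results of these data known.

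UMIs were summed per mouse and class. Classes with 20 or more cells in every library (15 in an added alternative) were fitted in edgeR (quasi-likelihood, TMM, filterByExpr) on group alone, with Benjamini-Hochberg adjustment over all genes tested and a threshold of 0.05; edgeR was first checked on simulated counts with known changes. Differences between classes were fitted with a term for each library. Shares were compared with two-sided exact permutation tests, for which 0.1 is the smallest p that 3 against 3 can give, and cells were thinned to 1000 UMIs for shares of cells with a UMI. Genes named are the 5 members in every class, up to 4 genes per list and class with the smallest p among those past the threshold, a set of pathway genes whatever their p (Tnf, Il1b, Nfkbia, Zfp36, Zc3h12a, Ackr1, Ackr2, Ly6c2, Plac8, Ccr1 and Cx3cr1), and the genes ranked most like each member. Some genes of these lists are not reported here.

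CLL and SHAM mice of the same replicate number were compared by the correlation of their deviations from the group means. It was 0.135, 0.316 and 0.176 in endothelial-like cells. It was negative in myogenic-like (-0.152, -0.244 and -0.177) and fibroblast/tenocyte-like cells (-0.0118, -0.0895 and -0.0378). In dendritic-like, macrophage/monocyte-like and all kept cells it had both signs. No label names a shared batch, and the numbers are not read as a pairing of mice. In endothelial-like cells the fit with the replicate block called 135 genes against 38 without it, and no member. Alternatives were DESeq2, RLE scaling, no filter on low counts, the replicate block, each library left out, doublets kept, cells with macrophage markers left out, and, chosen after seeing the data, single clusters, smaller classes, and both libraries with many unnamed cells left out.

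Motifs were searched on both strands of the RefSeq promoter windows, 250 bases before to 50 after the start: TATAAA, the kappa B consensus (8.46% of windows), AP-1 as TGANTCA (7.81%), STAT as TTCNNNGAA (8.3%), the interferon response element (3.44%), PU.1 as GAGGAAGT (3.2%) and C/EBP as TTNNGNAAT (11.5%). Tools were DESeq2 1.42.0, edgeR 4.0.16 and limma 3.58.1 in R 4.3.3, and Python 3.11.15 with scanpy 1.11.5, igraph 0.11.9, scikit-learn 1.9.0, scipy 1.17.1, numpy 2.4.6, pandas 2.3.3, biopython 1.88 and matplotlib 3.10.9.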

Additional observations from a re-analysis of the deposited data

Results flagged for a closer look

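In 5 cases the difference between CLL and SHAM itself differed between 2 classes of cells from the same mice, by the class by treatment term of edgeR's quasi-likelihood test with Benjamini-Hochberg adjustment over all genes. For Ccl2, the log2 fold change in macrophage/monocyte-like cells minus that in fibroblast/tenocyte-like cells was -1.16 (adjusted p = 0.0182), and minus that in dendritic-like cells it was 1.61 (adjusted p = 0.00512). For Ccl12, the macrophage/monocyte-like fold change minus the fibroblast/tenocyte-like one was 2.80 (adjusted p = 0.00714), and minus the dendritic-like one 2.83 (adjusted p = 0.0345). The Ccl12 fold change in myogenic-like minus that in fibroblast/tenocyte-like cells was 4.23 ± 0.60 (adjusted p = 0.0128), the largest of the 5, and it was lost without CLL replicate 1 (adjusted p = 0.0566). The myogenic-like values rest on a CLL replicate 2 level of 37.7 CPM against 7.11 and 6.28 CPM in the other CLL libraries. The 6 macrophage markers summed to 1727, 2916 and 1432 CPM in myogenic-like cells of CLL and 1779, 902 and 5074 CPM in SHAM, and their part in this difference was not tested.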

How the results depend on the processing

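The calls of all 5 members over all kept cells held in all 12 settings, and those of Ccl2, Ccl7, Ccl8 and Ccl12 in fibroblast/tenocyte-like cells in all 13. Dendritic-like and endothelial-like sums held as few as 44 and 40 cells in a library. The cause of the changes below was not tested. Without the filter on low counts, values that passed were the log2 fold changes of Ccl8 in dendritic-like (-1.91) and endothelial-like cells (-1.61), of Ccl2 in endothelial-like (1.08) and myogenic-like cells (1.12), of Ccl7 in macrophage/monocyte-like (0.90) and myogenic-like cells (1.39), and of Ccl12 (1.49) and Ccr2 (-1.56) in myogenic-like cells; the genes called became 406 in dendritic-like, 234 in endothelial-like, 1223 in macrophage/monocyte-like and 973 in myogenic-like cells. With the replicate block, Ccl12 (-3.40) and Ccr2 (-1.21) in dendritic-like cells no longer passed, and Ccl8 in myogenic-like cells turned to -0.38. The block called 31 dendritic-like, 135 endothelial-like and 58 myogenic-like genes. By their labels the samples of a block share only a number. With doublets kept, Ccl2 in macrophage/monocyte-like cells (1.16) no longer passed, and 49 dendritic-like, 15 endothelial-like and 272 macrophage/monocyte-like genes were called. DESeq2 called 70 endothelial-like genes. Without cells holding macrophage markers, Ccl8 in myogenic-like cells turned to -1.32, and 14 endothelial-like, 2174 fibroblast/tenocyte-like and 672 myogenic-like genes were called.

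Within single clusters, an alternative chosen after seeing the data, the log2 fold changes that crossed the threshold or turned against those of their class were Ccl7 -0.32 and Ccl8 -1.76 in the Pax7 cluster 1 of the myogenic-like class; Ccl12 0.0596 and Ccr2 -0.99 in cluster 5; Ccl2 0.66, Ccl7 -0.0124, Ccl8 -1.53, Ccl12 0.05004 and Ccr2 -0.32 in cluster 7; Ccl8 -0.70 in cluster 8; Ccl12 -2.48 in cluster 12; Ccr2 -1.05 in cluster 13; and Ccl7 0.66 in cluster 15. The difference in macrophage/monocyte-like cells with a UMI, CLL minus SHAM, was -9.60 percentage points for Ccl8 and -3.16 for Ccl12 unthinned, and over named classes alone the difference in Ccl12 UMIs was -0.26 in fibroblast/tenocyte-like and -3.19 in macrophage/monocyte-like cells.

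With each library left out, and with CLL replicate 2 and SHAM replicate 3 left out together, the log2 fold changes ranged as follows. In macrophage/monocyte-like cells Ccl2 ranged from 0.72 to 1.35, Ccl8 from -1.18 to 0.0877, Ccl12 from -1.03 to 0.35 and Ccr2 from -1.12 to -0.81. In dendritic-like cells Ccl7 ranged from -0.93 to 0.18, Ccl8 from -2.57 to -0.19, Ccl12 from -4.71 to -2.64 and Ccr2 from -1.35 to -1.13. In endothelial-like cells Ccl7 ranged from -1.07 to 0.0816 and Ccr2 from -2.35 to 0.0915. In myogenic-like cells Ccl8 ranged from -1.43 to 1.29 and Ccr2 from -1.98 to -1.07. The genes called ranged from 1 to 432 in dendritic-like, 8 to 61 in endothelial-like, 2353 to 3507 in fibroblast/tenocyte-like, 7 to 706 in macrophage/monocyte-like and 47 to 637 in myogenic-like cells.

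The differences of fold changes between classes ranged, for macrophage/monocyte-like minus fibroblast/tenocyte-like cells, from -1.32 to -0.99 for Ccl2, 2.40 to 3.13 for Ccl12 and 2.62 to 4.04 for Ccr2. With all libraries this Ccr2 term was not called (3.30 ± 0.90, adjusted p = 0.0762 by edgeR's class by treatment term). It rests on fibroblast/tenocyte-like levels of 0.0346 to 0.216 CPM in CLL, with too few UMIs to test in that class alone. For macrophage/monocyte-like minus dendritic-like cells the differences of fold changes ranged from 0.38 to 1.38 for Ccl7, -1.01 to 1.87 for Ccl8 and 1.66 to 4.66 for Ccl12. For endothelial-like minus fibroblast/tenocyte-like cells they ranged from -2.10 to -0.83 for Ccl2 and -2.60 to -1.45 for Ccl7. For myogenic-like minus fibroblast/tenocyte-like cells they ranged from -1.58 to -0.61 for Ccl2, -1.09 to -0.11 for Ccl7 and 3.48 to 4.70 for Ccl12. Differences in shares, in percentage points, ranged from -8.41 to 7.69 for Ccl8 and -0.603 to 14.6 for Ccl12 UMIs in macrophage/monocyte-like cells, -0.267 to 0.362 for Ccl12 UMIs in fibroblast/tenocyte-like cells, -3.02 to 5.74 for Ccr2 UMIs in macrophage/monocyte-like and -2.48 to 7.74 in dendritic-like cells, and -7.01 to 4.90 for macrophage/monocyte-like cells with a Ccl8 UMI and -3.23 to 2.08 with a Ccl12 UMI.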
